A study of Homo sapiens with 5 samples.

Results

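The mesenchymal state genes described here are 9 protein-coding genes, VIM, ZEB1, ZEB2, SNAI2, FN1, CDH2, AXL, CD44 and CAV1, out of 20037 protein-coding genes on the main chromosomes. They were chosen by name, with earlier results of these data known, and the rule itself used no measured value. Every peak was taken that lay in a gene body or within 1 kb of either gene end (the gene window), or farther out but within 100 kb of the gene. Binding was mapped by ChIP-seq, in which DNA fixed to a protein is recovered with an antibody and sequenced, in MIA PaCa-2 cells, a long-established line from a human pancreatic carcinoma. In untreated parental cells the targets were MED17, MED30 and MYC. In a MIA PaCa-2 line with a doxycycline-inducible (teton) hairpin against MED30 (shMED30), MYC was mapped without doxycycline and after 3 days of it, so that both of these groups carry the hairpin construct. Each of the 5 groups is 1 library, so no difference between groups could be tested, and no p-value is given. The levels of MED30 RNA and protein were not analysed here, and the lists hold no expression values. Whether the shMED30 line is a single clone is not given in the sources used here.

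Mediator is a large complex that carries signals from DNA-bound transcription factors to RNA polymerase II at promoters and enhancers. MED17 belongs to its head module, and MED30 is a subunit found in animals. MYC binds DNA with its partner MAX, at the E-box CACGTG and related CANNTG sequences. Carcinoma cells in a mesenchymal state have weaker cell contacts and higher motility than epithelial cells; the repressors ZEB1, ZEB2 and SNAI2 (Slug) silence epithelial genes through E-boxes such as CAGGTG, and VIM, FN1, CDH2, AXL, CD44 and CAV1 encode proteins of the cytoskeleton, the matrix and the cell surface.

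The genes fell into 3 patterns in the gene window. VIM had peaks of MED17, MED30 and parental MYC. ZEB1, AXL, CD44 and CAV1 had peaks of both Mediator subunits and none of MYC. ZEB2, SNAI2, FN1 and CDH2 had no peak in any list. No gene of the 9 had a MYC peak in the window in the shMED30 line, with or without doxycycline. MED17 and MED30 thus each had a peak at 5 of 9 genes, where 52.8% and 46.4% of all protein-coding genes had one, and parental MYC at 1 of 9, where the background was 44.2%. For MYC in the shMED30 line the counts were 0 of 9 and 0 of 9, beside backgrounds of 11% without doxycycline and 7.41% with it. The Mediator counts were close to the background. With the weaker 50% of each list by fold left out, the counts were 2 of 9 for MED17, 4 of 9 for MED30 and 0 of 9 for parental MYC. The shares over all protein-coding genes were not computed at that setting. With 9 genes, each one moves a share by 11.1 percentage points.

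**Figure D1:**
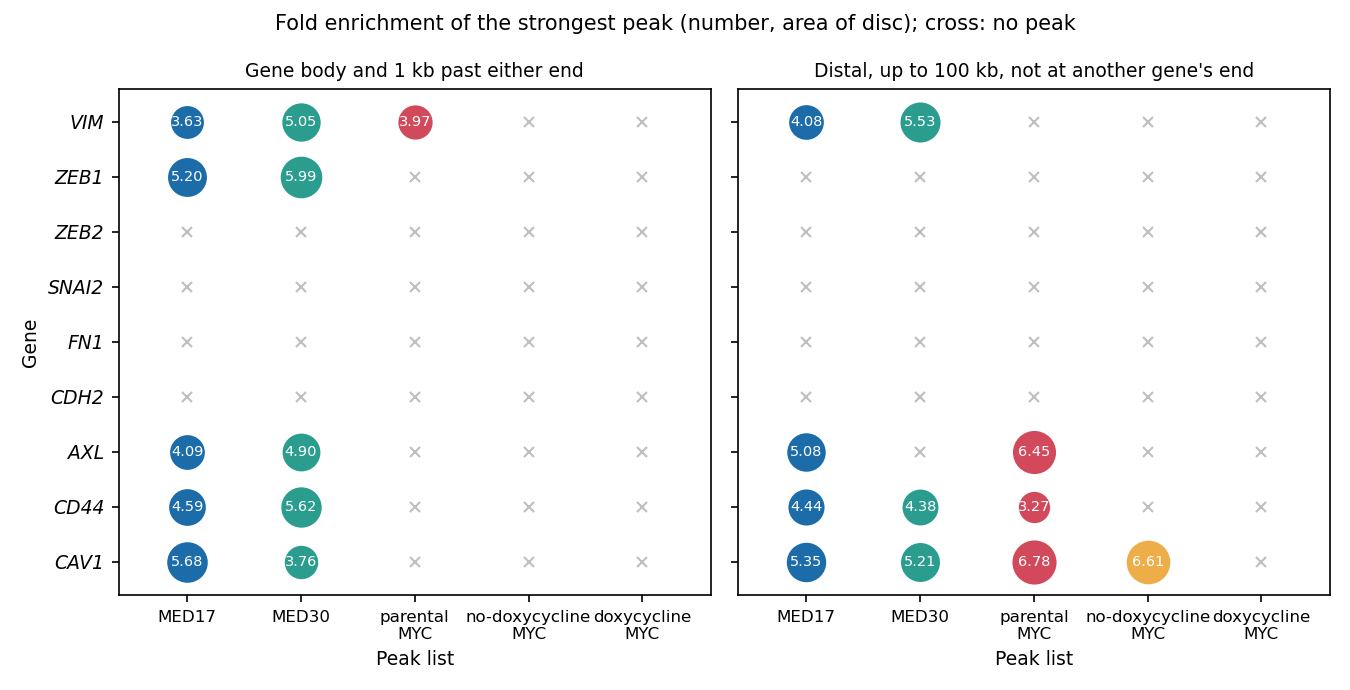
Fold enrichment of the strongest peak of each gene (rows) in each list (columns), in the gene window on the left and at distal sites on the right; disc area is proportional to the fold printed in it, and a cross marks no peak. The left panel has Mediator discs for VIM, ZEB1, AXL, CD44 and CAV1 and a single MYC disc, at VIM (3.97).

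Fold here is how many times the pileup of fragments at the summit exceeds the background around it, as the authors' peak caller gave it, and the percentile is the rank of that fold among the peaks of the same list. Fixation differed: MED17 and MED30 chromatin saw 2 mM disuccinimidyl glutarate for 20 min before 1% formaldehyde for 10 min, MYC chromatin the formaldehyde step alone. The lists also differ in depth. The lowest background, recovered from the fold and p of the peaks, was 1.60 fragments in the MED17 list and 1.65 in the MED30 list, while parental MYC had 2.56 and the shMED30 line 0.310 (no doxycycline) and 0.186 (doxycycline). Summits of parental cells held a median of 21 to 22 fragments, those of the shMED30 line 8 and 6. The part of depth and fixation in the patterns above was not tested.

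The start sites under Mediator peaks at ZEB1, CD44, AXL and CAV1 are shown first, because these genes had both subunits and no MYC. RefSeq start windows (GRCh38.p14) were matched for 8 of the 9 genes, 18 windows in all; SNAI2 had no entry. Each sequence is the 250 bases before a start, 5′ to 3′ on the strand of the gene, with CANNTG in capitals; all 5 are on the plus strand. The ZEB1 window lies under the MED30 peak, and the MED17 peak covers its last 47 bases; the CD44 window under both peaks, and the AXL window under the MED30 peak. The CAV1 windows stand for the starts where MED30 (start 1) and MED17 (start 3) had their peaks.
ZEB1, chr10:31318966-31319215: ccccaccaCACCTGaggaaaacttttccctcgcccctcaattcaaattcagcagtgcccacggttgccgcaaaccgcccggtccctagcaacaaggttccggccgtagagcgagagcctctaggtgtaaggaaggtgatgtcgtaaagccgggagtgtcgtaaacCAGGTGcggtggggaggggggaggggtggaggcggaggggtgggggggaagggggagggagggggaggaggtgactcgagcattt
CD44, chr11:35138921-35139170: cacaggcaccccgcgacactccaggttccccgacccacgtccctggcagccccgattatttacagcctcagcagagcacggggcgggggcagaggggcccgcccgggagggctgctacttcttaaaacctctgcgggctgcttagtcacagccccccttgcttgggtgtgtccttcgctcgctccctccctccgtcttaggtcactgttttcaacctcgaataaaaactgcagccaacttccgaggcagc
AXL, chr19:41218973-41219222: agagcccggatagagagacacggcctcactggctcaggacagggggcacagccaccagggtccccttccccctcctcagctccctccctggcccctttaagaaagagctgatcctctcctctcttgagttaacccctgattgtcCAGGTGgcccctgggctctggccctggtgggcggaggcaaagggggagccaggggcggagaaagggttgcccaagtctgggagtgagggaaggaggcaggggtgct
CAV1 start 1, chr7:116524759-116525008: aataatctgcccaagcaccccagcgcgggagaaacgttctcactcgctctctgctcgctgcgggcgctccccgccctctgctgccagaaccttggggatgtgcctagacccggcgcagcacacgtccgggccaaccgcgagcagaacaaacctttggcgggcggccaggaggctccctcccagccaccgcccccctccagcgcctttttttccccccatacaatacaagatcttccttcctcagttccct
CAV1 start 3, chr7:116526112-116526361: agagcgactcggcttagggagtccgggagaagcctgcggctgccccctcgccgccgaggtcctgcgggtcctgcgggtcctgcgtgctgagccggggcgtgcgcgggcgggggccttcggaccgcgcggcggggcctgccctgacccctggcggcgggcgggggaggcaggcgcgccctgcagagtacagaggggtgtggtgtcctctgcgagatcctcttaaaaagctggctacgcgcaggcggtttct

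The E-box CACGTG, on either strand, occurred in none of the 18 windows of these genes, where 7.37% of 22199 windows of protein-coding genes held it. CANNTG, which includes CACGTG and CAGGTG, occurred in 8 of 18, beside 58.1% of all windows. CAGGTG, searched on both strands as the others were, occurred in 3 of 18, beside 17% of all windows. Of these 3 windows, 2 belong to ZEB1 and 1 to AXL. The ZEB1 window printed above holds CAGGTG in both orientations, and both matches lie before the MED17 peak, under the MED30 peak alone. TGANTCA, which takes in the AP-1 sequence TGACTCA and other words, was found in 1 window, beside 5.36% of all windows. That match, at a CDH2 start, reads TGAATCA and is not the AP-1 sequence itself. GGAATG, the TEAD sequence, was found in 1 window (the downstream AXL start), beside 10.5%. Several windows of ZEB1 and CAV1 lie close together or overlap, so the 18 are not independent, and all of these are matches of letters.

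VIM encodes vimentin, the intermediate filament protein of mesenchymal cells, on chromosome 10 (17228241 to 17237593, plus strand). Its peaks all began inside the gene, just past the start, and overlapped each other. The MED17 peak at chr10:17228454-17230792 had a fold of 3.63, its summit 663 bp past the start. The MED30 peak at chr10:17228347-17229556 had a fold of 5.05, with the summit 1015 bp past the start. The parental MYC peak at chr10:17228315-17229469 had a fold of 3.97, with the summit 622 bp past the start. These folds were at percentiles 10.7, 57.2 and 33.6 of their lists. By summit pileup the same peaks ranked higher in the Mediator lists: 46 fragments for MED17 (percentile 92.6), 79 for MED30 (97.7) and 25 for MYC (59.7). The local background there was 11.9 fragments for MED17 and 14.8 for MED30, far above the lowest background of either list. An antisense RNA gene, VIM-AS1, overlaps the peaks and has a start within 1 kb of each, so they cannot be assigned to VIM alone. No peak reached the VIM start window itself (250 bases before to 50 after the start), so VIM is counted by its gene window and not by its start window.

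**Figure D2:**
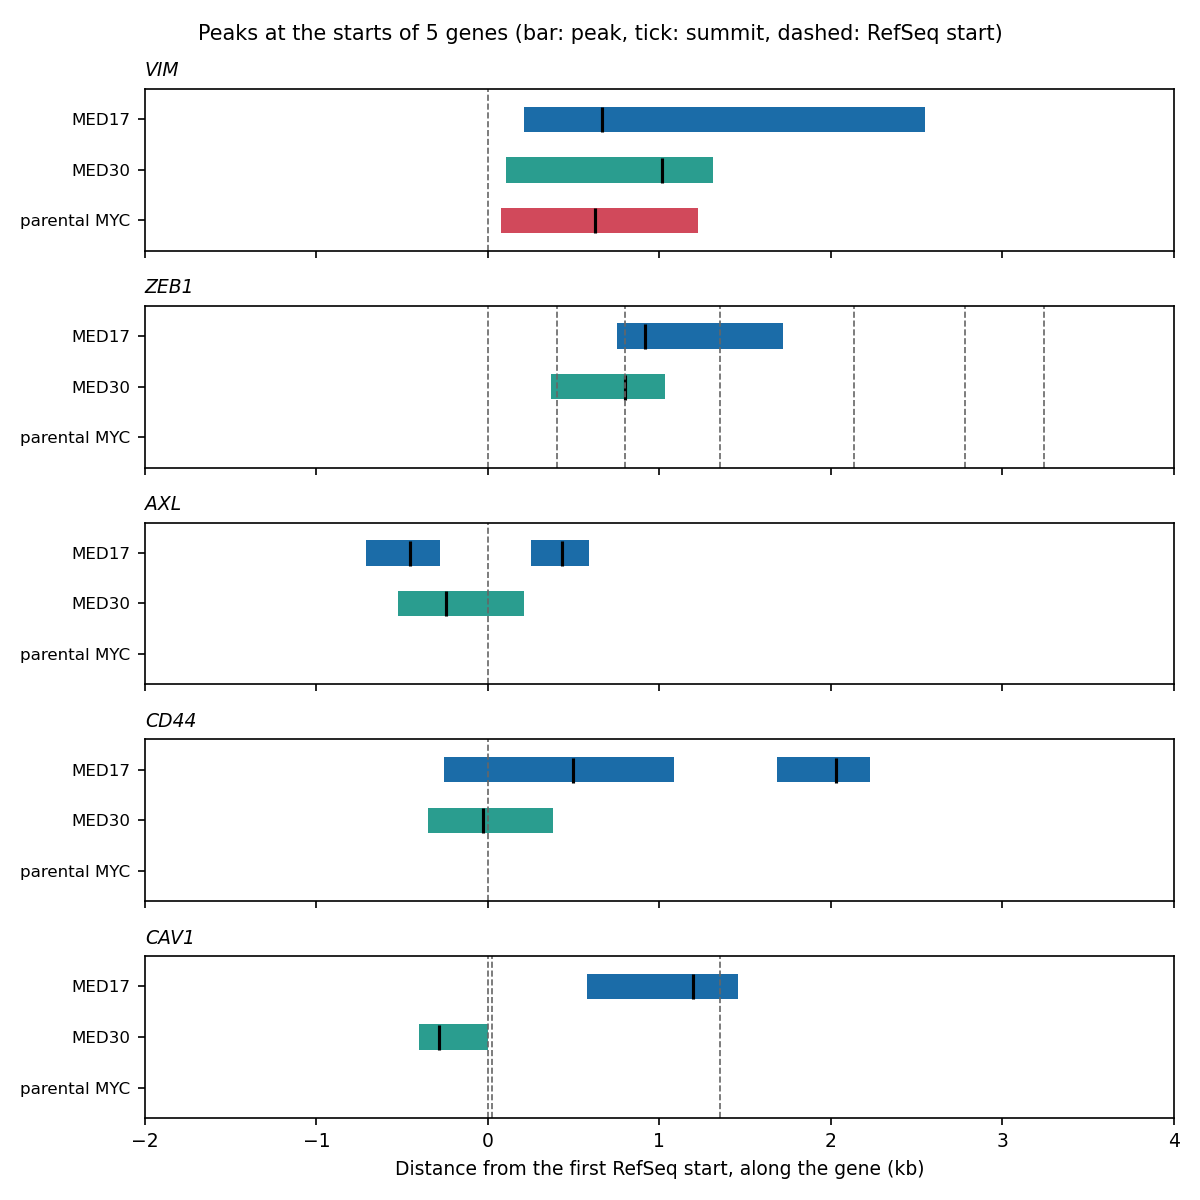
Peaks (bars) and their summits (ticks) at the starts of 5 genes, by distance in kb from the first RefSeq start along the gene; dashed lines are the RefSeq starts. MED17 and MED30 bars overlap at VIM, ZEB1, AXL and CD44 and lie apart at CAV1, and the single MYC bar is at VIM.

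ZEB1 encodes a zinc finger repressor of epithelial genes (chromosome 10, 31318417 to 31529804, plus strand), and RefSeq lists 7 starts within its first few kilobases. Its MED17 peak at chr10:31319169-31320138 had a fold of 5.20 (percentile 56.4) and a summit pileup of 31 fragments. Its MED30 peak at chr10:31318786-31319453 had a fold of 5.99 (percentile 78.5) and a pileup of 27. The peaks shared 285 bp, and their summits were 119 bp apart. The MED30 summit fell on the start at 31319216, the one that follows the ZEB1 sequence printed above. The start of the divergent RNA gene ZEB1-AS1 lies within 1 kb of both peaks, so these too may belong to either gene. The ZEB1 body, 211.4 kb long, held no other peak in any list. The nearest parental MYC peak (fold 3.24) was 73.7 kb past the gene, at an end of the gene model LOC124906892.

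CD44 encodes the hyaluronan receptor (chromosome 11, 35139171 to 35232402, plus strand). The MED30 peak at chr11:35138820-35139550 had a fold of 5.62 (percentile 71.4, pileup 38), and its summit lay 29 bp before the start. The MED17 peak at chr11:35138915-35140256 had a fold of 4.59 (percentile 37.8, pileup 43) and shared 636 bp with it. A further MED17 peak inside the gene, at chr11:35140858-35141399, was weak, with a fold of 2.50 at percentile 0.4. Both start peaks have the start of the divergent RNA gene CD44-DT within 1 kb. MYC had no peak there in any of its lists.

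AXL encodes a receptor tyrosine kinase for the ligand GAS6 (chromosome 19, 41219223 to 41261766, plus strand). MED30 covered its first start with a peak at chr19:41218697-41219432 (fold 4.90, percentile 52.5, pileup 23). MED17 had a peak on either side of that start and none on it. The upstream one, at chr19:41218514-41218945 (fold 4.03), shared 249 bp with the MED30 peak. The downstream one, at chr19:41219474-41219810 (fold 4.09), began 41 bp past its end. A weaker MED30 peak without MED17 lay at chr19:41226054-41226521 (fold 3.97, percentile 21.8), with its summit 505 bp before the downstream AXL start. The third MED17 peak counted for AXL, at chr19:41262711-41263331, lies past the gene and at the start of HNRNPUL1, which encodes a nuclear RNA-binding protein.

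CAV1 encodes caveolin-1, the scaffold of caveolae (chromosome 7, 116525009 to 116561185, plus strand). Here the 2 subunits had peaks at different starts. MED30 lay just before the first start, at chr7:116524609-116525007, with a fold of 3.76 (percentile 15.5, pileup 18). MED17 lay at chr7:116525585-116526469, over the third start, with a fold of 5.68 (percentile 68.8, pileup 35). A gap of 577 bp separated the peaks, and the summits were 1483 bp apart. With 1 library each, a subunit without a called peak may still have been present at a level below the threshold.

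Across these genes, 4 of 6 MED30 peaks in the gene window overlapped a MED17 peak, at VIM, ZEB1, AXL and CD44. In the whole MED30 list 77.3% of peaks did, and 89.9% of those within 1 kb of a protein-coding gene end. Of the same 6 MED30 peaks 1 overlapped a parental MYC peak, beside 67.1% of the whole list and 73.8% at gene ends. For MED17, 5 of 8 window peaks overlapped MED30 (71.5% of the list, 76.6% at gene ends) and 1 of 8 overlapped MYC (66.1% and 69%). The overlap with MYC rises with fold in these lists. Among MED30 peaks ranked by fold into 5 equal bins, it was 47.1% in bin 1, the lowest, which holds the CAV1 peak. It was 60.8% in bin 2 and 67.9% in bin 3, which hold the AXL peaks, and 76.3% in bin 4, which holds the start peaks of ZEB1 and CD44. Among MED17 peaks the overlap with MYC was 45.3% in bin 1 and 60.2% in bin 2, which hold the window peaks of VIM, AXL and CD44. It was 68.9% in bin 3, which holds the ZEB1 peak, and 74.7% in bin 4, which holds the CAV1 peak. Both subunits without parental MYC in the gene window, the pattern of 4 of these 9 genes, was found at 8.01% of all protein-coding genes. With the weaker 50% of each list by fold left out, 1 of the 9 genes had this pattern, and the share over all genes was not computed at that setting. Both subunits with MYC, the pattern of VIM, was found at 35.5%. The groups rest on 1 library per protein, and the members were named with earlier results of these data known, so the counts describe these genes only.

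The genes without a peak in the window were ZEB2 (chromosome 2, 144384081 to 144520119), a second ZEB repressor; SNAI2 (chromosome 8, 48917598 to 48921429), a repressor of the Snail family; FN1 (chromosome 2, 215360865 to 215436068), which encodes the matrix protein fibronectin; and CDH2 (chromosome 18, 27932879 to 28177130), which encodes N-cadherin. No peak of any of the 5 lists was found in the window at 41.1% of all protein-coding genes, and none of the 3 lists from parental cells had one at 42.2%. These genes are 244.3 kb (CDH2), 136.0 kb (ZEB2), 75.2 kb (FN1) and 3.8 kb (SNAI2) long, and the genes with Mediator peaks 211.4 kb (ZEB1), 93.2 kb (CD44), 42.5 kb (AXL), 36.2 kb (CAV1) and 9.4 kb (VIM). Over all protein-coding genes, 43.7% of those under 20 kb had a MED17 peak in the window, 63.4% of those from 20 to 100 kb and 53.2% of those over 100 kb. The part of gene length was not tested.

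SNAI2 and CDH2 had no peak within 100 kb either, which held for 15.3% of all protein-coding genes. The peak nearest to SNAI2 in the lists from parental cells was 402.5 to 402.7 kb away, at a site with MED17 (fold 5.35), MED30 (4.58) and MYC (3.59). In the shMED30 lists it was 908.9 and 909.2 kb away. The peak nearest to CDH2 was a MED17 peak 1276.1 kb away at KCTD1, and in the other lists a peak at TAF4B, 1705.9 to 1706.2 kb away. ZEB2 and FN1 did have peaks within 100 kb, all of them at the end of a neighbouring gene. Near ZEB2 these were at QTMAN, with a MED17 fold of 5.96, a MED30 fold of 4.01 and a parental MYC fold of 4.61. Near FN1 they were at ATIC, an enzyme gene of purine synthesis, with a MED17 fold of 5.52, a MED30 fold of 6.54 and a parental MYC fold of 10.7, the last at percentile 97.6 of its list.

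**Figure D3:**
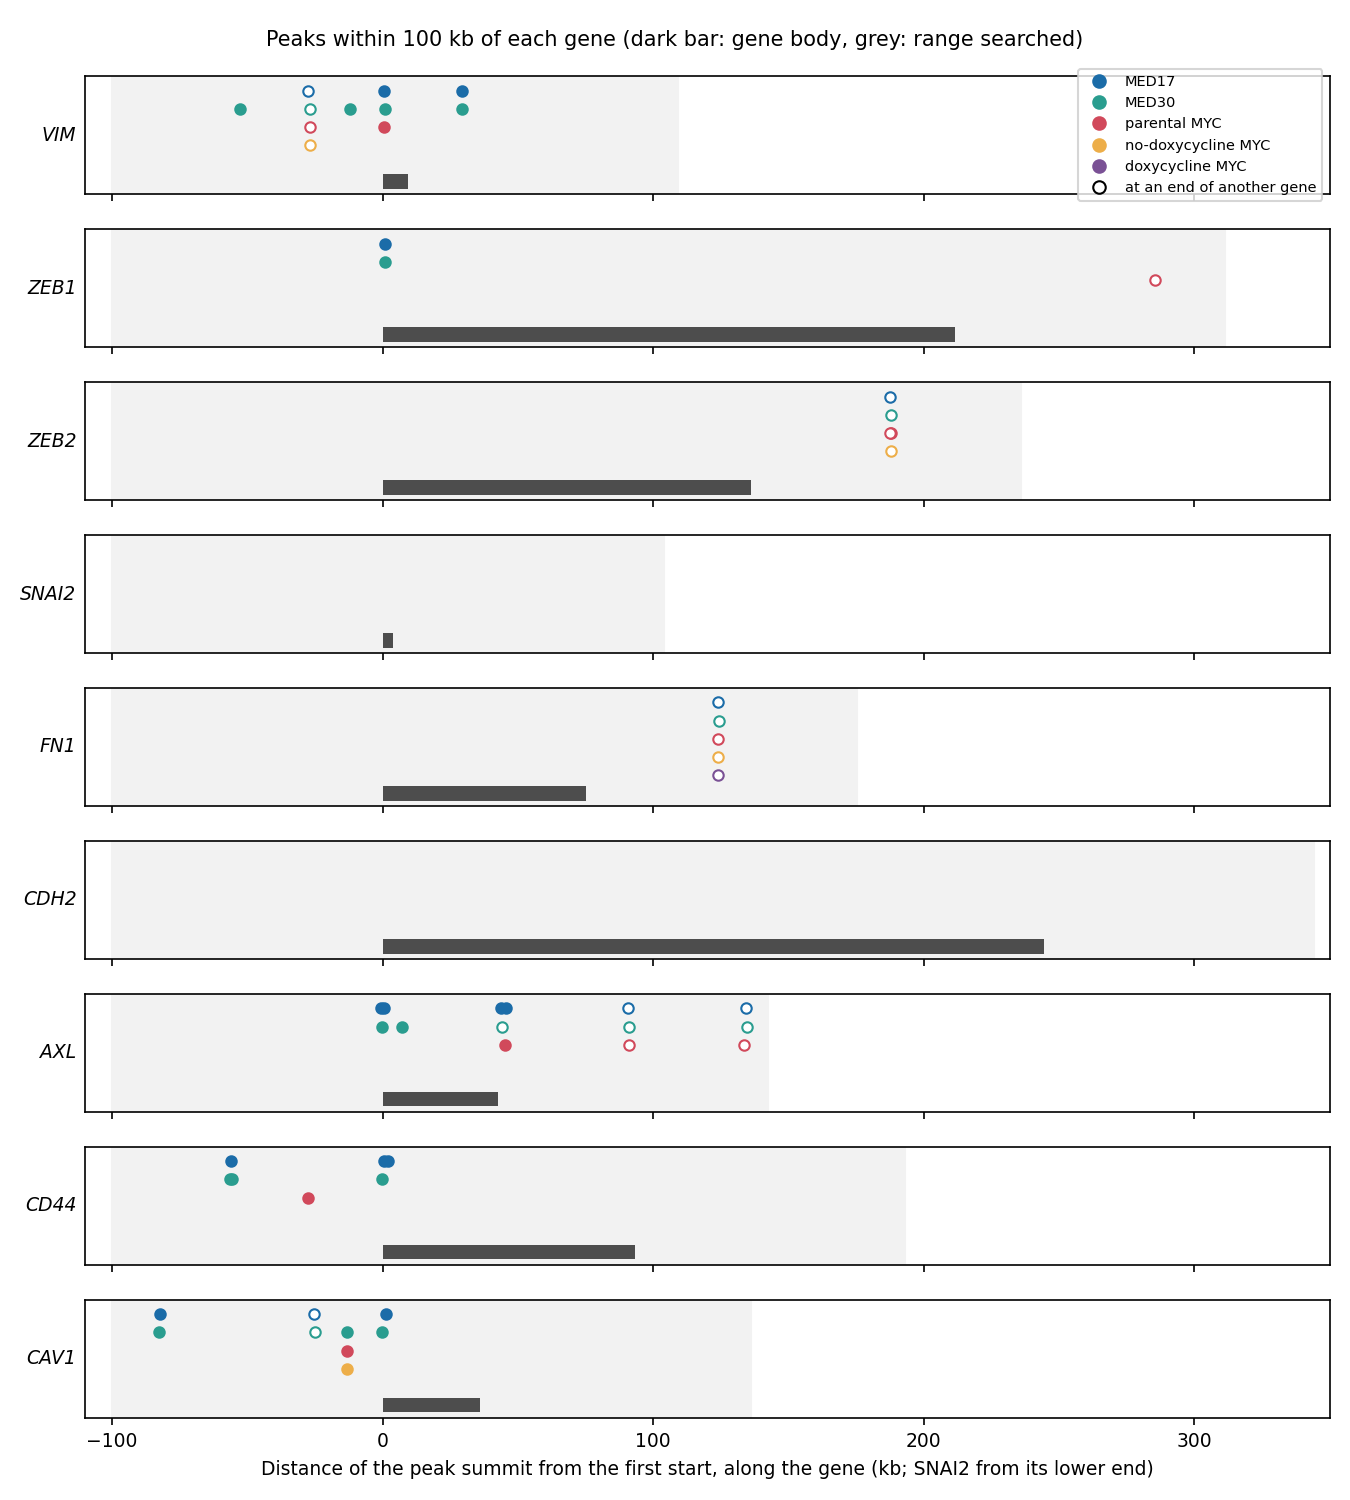
Peak summits (circles) within 100 kb of each of the 9 genes, by distance in kb from the start along the gene; dark bars are gene bodies, the grey band is the range searched, and open circles lie within 1 kb of an end of another protein-coding gene. SNAI2 and CDH2 have no circle, and ZEB2 and FN1 have open circles alone.

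Distal peaks, meaning those over 1 kb and up to 100 kb from the gene and not at an end of another protein-coding gene, were found near VIM, AXL, CD44 and CAV1. The lists had 4 such peaks of MED17, 7 of MED30, 3 of parental MYC, 1 of MYC without doxycycline and 0 with it. By gene, MED17 had a distal peak at 4 of 9, MED30 at 3 and parental MYC at 3, beside 32.4%, 32.7% and 32.8% of all protein-coding genes; for MYC in the shMED30 line it was 1 of 9 without doxycycline and 0 of 9 with it, beside 11.9% and 10.9%. At 3 distal sites both subunits overlapped and MYC had no peak. One lay 29.3 kb past the start of VIM, with folds of 4.08 for MED17 and 4.53 for MED30. Another lay 56.1 kb before CD44 by the MED17 summit, with folds of 4.44 and 2.65, and a stronger MED30 peak (4.38) stood beside it without overlap; LOC105376627, a long noncoding RNA gene, has a start within 1 kb. The last lay 82.2 kb before CAV1, at chr7:116442331-116442881 for MED17 and chr7:116442342-116442759 for MED30, with folds of 5.35 and 5.21 (percentiles 60.8 and 61.3), inside the noncoding RNA gene CAV2-DT. MED30 had further peaks without MED17 before VIM, at 11.8 kb (fold 4.42), inside VIM-AS1, and at 52.5 kb (fold 5.53), inside the neighbouring gene TRDMT1.

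MYC had 3 distal peaks in parental cells. The strongest, at chr7:116511428-116512095, lay 13.3 kb before CAV1 with a fold of 6.78 (percentile 86.4) and a pileup of 42 fragments. A weak MED30 peak overlapped it (fold 3.14, percentile 3.2, pileup 12), and MED17 had none there. Among parental MYC peaks of the same bin by fold, the highest, that lie away from gene ends, 56.7% overlapped MED30 and 58.9% overlapped MED17. The neighbouring gene CAV2 starts on the same side of CAV1. Within 1 kb of that start were a MED17 peak (fold 6.55, percentile 84.8) and a MED30 peak (fold 3.55), with summits 25.2 and 25.0 kb before CAV1. The MYC site is thus counted for CAV1 by distance and cannot be assigned to CAV1 alone. The peak near AXL, at chr19:41264108-41265109 (fold 6.45), lies inside HNRNPUL1 at a downstream start of that gene, together with a MED17 peak (fold 5.08), and is counted for AXL by distance alone. The peak 27.5 kb before CD44, at chr11:35111620-35111973, was weak (fold 3.27, percentile 8.9, pileup 14) and overlapped no peak of another list. In all, 2 of the 4 parental MYC peaks in the window or distal overlapped MED30 (exact 95% interval 6.8 to 93.2%, for counting error only), beside 57.4% of the whole list, and 2 of 4 overlapped MED17, beside 62%.

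The comparison of MYC without and with doxycycline, which addresses MYC binding after induction of the hairpin against MED30, had a single distal site to show. Without doxycycline MYC had a peak at chr7:116511718-116511948, inside the parental MYC peak 13.3 kb before CAV1 (48% of no-doxycycline peaks overlapped a parental one), with a fold of 6.61 (percentile 79.3) and a pileup of 10 fragments. With doxycycline no MYC peak lay within 100 kb of CAV1, and the nearest was 2105.1 kb away. Of no-doxycycline peaks in the same bin by fold (bin 4) and away from gene ends, 33.2% overlapped a doxycycline peak. Most peaks of this strength thus had no called counterpart in the doxycycline list. The doxycycline library was shallower (lowest background 0.186 against 0.310 fragments), and the part of depth in the absence of a called peak was not tested. VIM, with the only window peak of MYC in parental cells, had none in the shMED30 line under either condition. Of all protein-coding genes, 11% had such a peak without doxycycline and 7.41% with it. The shMED30 lists are also shorter, with 7158 and 4621 peaks against 14331 for parental MYC. The parental MYC fold at VIM was in bin 2 of its list. The share of parental MYC peaks with a counterpart in the shMED30 lists was not computed, so the absence at VIM cannot be read as a loss.

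The MYC peaks of the shMED30 line at neighbouring genes differed in the same comparison. At TRDMT1, 26.7 kb from VIM, the no-doxycycline fold was 6.01 (pileup 9), and at QTMAN, 51.5 kb from ZEB2, it was 6.50 (pileup 8). Neither overlapped a doxycycline peak. At ATIC, 48.6 kb from FN1, the fold was 8.77 without doxycycline (pileup 15) and 6.84 with it (pileup 8). Of the 4 no-doxycycline peaks within 100 kb of these genes, 1 thus had a doxycycline counterpart, beside 28.2% of the whole list, and it was the one with the highest fold. These are the neighbours' peaks, and the folds of libraries that differ in depth give no change between them.

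**Figure D4:**
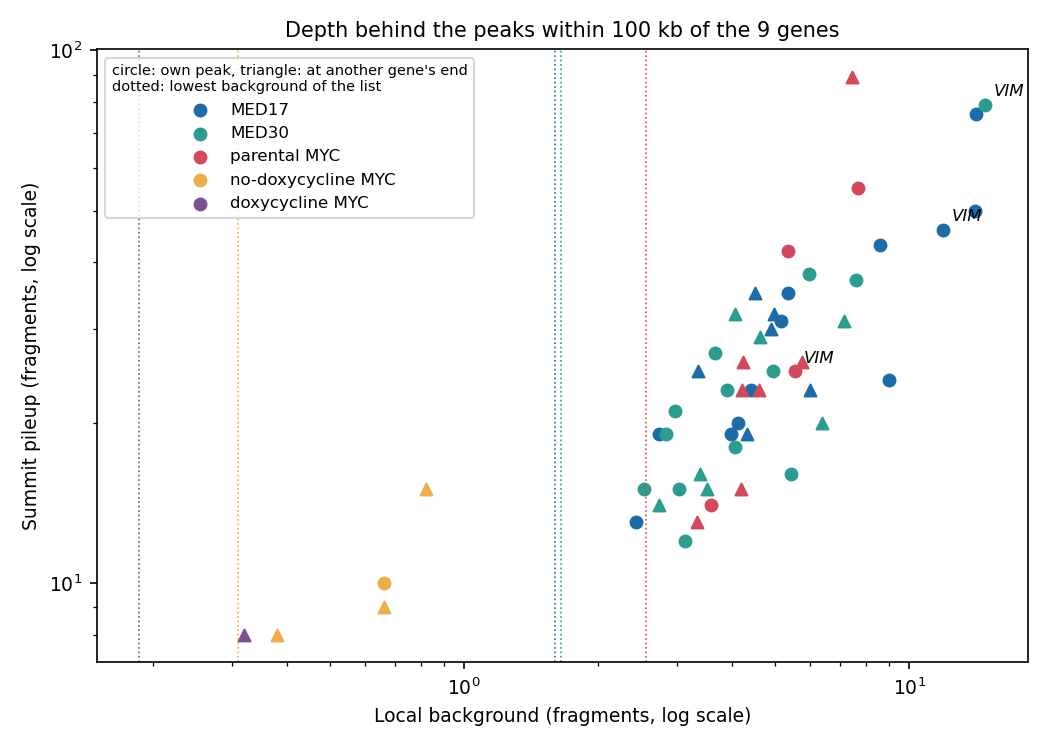
Summit pileup against local background, both in fragments on log scales, for every peak within 100 kb of the 9 genes; circles are peaks in the gene window or distal, triangles are at an end of another gene, and dotted lines mark the lowest background of each list. Peaks of the shMED30 line have pileups of 8 to 15, and the VIM peak of MED30 has 79 over a local background of 14.8.

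Other mesenchymal genes were examined by the same gene window, in a list of 36 that held transcription factors, TGF-beta pathway genes, integrins, matrix genes and actin-binding genes. MED17 had a peak at 19 of them, MED30 at 19 and parental MYC at 16, or 52.8%, 52.8% and 44.4%, close to the background of all genes. All 3 proteins were present at 14, both subunits without MYC at 4, and none of the 3 at 15. The repressor gene SNAI1 (MED30 fold 8.92, MED17 6.78, MYC 5.41), CALD1, which encodes the actin-binding caldesmon (7.60, 4.93 and 5.24), SMAD4, a TGF-beta signal transducer (6.54, 7.22 and 4.09), and CAVIN1, a caveola coat protein (6.42, 5.07 and 3.18), had the highest MED30 folds among those with all 3. SNAI1 thus carried all 3 proteins, while its relative SNAI2 carried none. CAVIN1 had the pattern of VIM and not that of CAV1, whose product it joins in caveolae. That contrast rests on a weak CAVIN1 MYC peak (fold 3.18), as a fold of 3.24 was at percentile 8.0 of the parental MYC list.

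The genes with both subunits and no MYC, as at ZEB1, AXL, CD44 and CAV1, were ITGB1, ITGAV, GAS6 and ITGA5. ITGB1 encodes integrin beta-1 (MED30 fold 7.12, MED17 fold 4.04). ITGAV (5.57 and 6.13) and ITGA5 (3.81 and 6.60) encode integrin alpha chains. GAS6 encodes the ligand of AXL (4.43 and 3.45). This 5-list pattern, both subunits and no MYC in any list, was shared by 1534 protein-coding genes (7.66%). The pattern of VIM was shared by 12 genes of the list and by 24.6% of protein-coding genes. The empty pattern of ZEB2, SNAI2, FN1 and CDH2 was shared by 14 genes of the list, among them TWIST1, PRRX1, MMP2, SPARC, TNC and CDH11.

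In the shMED30 line, MYC had a window peak at 2 of the 36 related mesenchymal genes without doxycycline (5.6%) and at 3 with it (8.3%). The shares over all protein-coding genes were 11% and 7.41%. TGFBR1, a TGF-beta receptor gene, was in the no-doxycycline list (fold 4.33), and NT5E (3.23) and TCF4 (3.37) were in the doxycycline list. Each rests on a single peak in a library of low depth, so these lists show no gain or loss at a gene. NT5E also carried both subunits and parental MYC, with a MED30 fold of 4.66, whereas TCF4 had no peak in the lists from parental cells.

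Epithelial genes, which mark the opposing state, were examined in the same way. MED17 had a peak at 7 of 23, MED30 at 6 and parental MYC at 5, or 30.4%, 26.1% and 21.7%, and 15 had none of the 3; the backgrounds of all genes are those given above. The genes with all 3 were KRT8 and KRT18, a keratin pair (MED30 folds 5.36 and 4.46), the tight junction gene TJP1 (4.53) and the desmosome gene PKP3 (4.14). The bodies of KRT8 and KRT18 overlap, and each had 1 parental MYC peak of the same fold (4.82), so the same peak is likely counted for both. DSP and KRT19 had both subunits without MYC (MED30 folds 4.57 and 3.80). CDH1, which encodes E-cadherin, EPCAM, ESRP1, GRHL2, OVOL1 and OVOL2 had no peak in any list. No epithelial gene had a MYC peak in the shMED30 line. The difference between these gene lists was not tested.

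**Figure D5:**
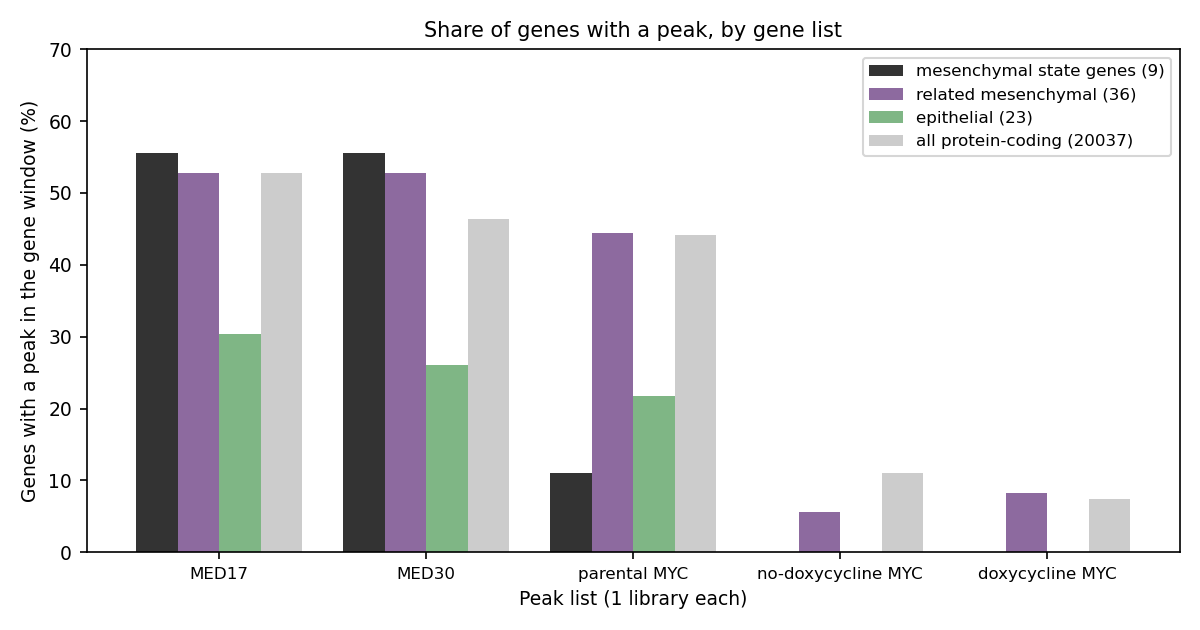
Share of genes with a peak in the gene window (%), for the 9 mesenchymal state genes, 36 related mesenchymal genes, 23 epithelial genes and all 20037 protein-coding genes, in each of the 5 lists. For the 9 genes the Mediator bars stand at 55.6% and the parental MYC bar at 11.1%, beside 44.2% for all genes.

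Counted by start windows in place of gene windows, for the 8 genes with a RefSeq start, MED17 covered 3, MED30 covered 4 and parental MYC covered 0. The shares over all protein-coding genes with a start window were 44.5%, 42.3% and 36.6%. MYC in the shMED30 line covered 0 of 8 in both lists, beside 6.28% without doxycycline and 3.35% with it. The MED17 genes were ZEB1, CD44 and CAV1, and MED30 covered AXL as well.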

How the data were processed

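Peak lists of 5 ChIP-seq libraries were used, 1 per group, each a deposited narrowPeak file. The submitters' processing notes list hg38 as the build, and MACS2, Bowtie2, Trim Galore and deepTools as tools; for versions and for any input control, the status is: not given in the sources used here. The authors' fold (a ratio), the deposited −log10 p and −log10 q, and the deposited score (10 times −log10 q) served for description, ranking and filtering inside each list. The lists held 13172 (MED17), 12040 (MED30), 14331 (parental MYC), 7158 (no doxycycline) and 4621 (doxycycline) peaks; the first 3 start at a q near 0.05, the last 2 near 0.1.

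Peaks were assigned to genes with RefSeq positions (GRCh38.p14, 20037 protein-coding genes); overlap means at least 1 shared bp. Pileup and local background were solved from fold = (pileup + 1)/(background + 1) and a Poisson p, with a tolerance of 0.002 (log10) that between 99.59% and 99.89% of each list met. Exact (Clopper-Pearson) 95% intervals cover counting error only. Motifs were searched on both strands of the 250 bases before each start. Python 3.11.15, pandas 2.3.3 and SciPy 1.17.1 were used. The members and gene lists were chosen with earlier results of these data known. Named are all 9 members, neighbouring genes at their peaks, and up to 4 genes per related list and class by fold; genes named for an empty or unmatched pattern were chosen after their values were seen. A gene that this rule takes is not reported here.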

Additional observations from a re-analysis of the deposited data

How the results depend on the processing

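Of 72 alternative settings over 16 counts, 46 stayed within 1.5 times the value given above and 26 did not. Those that stayed include counts of 0 under stricter filters, which cannot raise a 0, so these say nothing of stability. With the weaker 50% of peaks by fold left out of every list, 2 genes had a MED17 peak in the window, 0 a parental MYC peak and 1 both subunits without MYC, and there were 2 distal MED17 and 2 distal MED30 peaks; MED30 peaks overlapping MED17 fell to 2, MYC peaks overlapping MED30 to 0 and overlapping MED17 to 1. With a margin of 5 kb, 2 genes had a parental MYC peak. With q of 0.01 or lower, 1 MYC peak overlapped MED30. Within 50 kb there were 2 distal MED17 and 3 distal MED30 peaks; within 200 kb there were 10 of MED17, 16 of MED30, 6 of parental MYC and 2 without doxycycline. With peaks at ends of other genes kept, distal counts were 10, 14, 10, 4 and 1 in the order of the lists. For peak centres within 250 bp, 2 MED30 peaks overlapped MED17 and 0 MYC peaks overlapped MED17; for a reciprocal overlap of 50%, 2 and 1, and 0 no-doxycycline peaks overlapped parental MYC. No paired analysis was possible because each group holds 1 library. Pileups of 8 to 15 fragments in the shMED30 line limit what those lists can show.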

Other observations

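Marker genes of other cell types had few peaks in the gene window. Of 6 fibroblast genes, COL1A2, a collagen gene, had a peak of both Mediator subunits, and none had a MYC peak. None of 5 acinar genes and none of 5 immune genes had a peak in any of the 5 lists.

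Of the 18 RefSeq start windows of the mesenchymal state genes, the G and C content before the start ranged from 42.0% at a downstream CDH2 start to 76.4% at FN1, around a median of 62.0% over all protein-coding windows. FN1, with 32 CpG dinucleotides in its window, had no peak, whereas the AXL window at the first start, under the MED30 peak, held 4. These are the extremes of the 18 windows. The other windows with a Mediator peak held 13 to 29, and the other windows without a peak held 4 to 25.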
